A study of Mus musculus with 6 samples.

Results

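The genes described here are 10 heat shock chaperones of the mouse cytosol and mitochondrion, taken by name: Hspa1a, Hspa1b, Hsph1, Hsp90aa1, Dnaja1, Hspa8, Hsp90ab1, Hspa4, Hspd1 and Hspe1. Probes were assigned to them through the RefSeq accession that the scanner files give for each probe. Of the 10 genes, 9 were measured, by 17 probes in all, out of 14906 genes tested. No probe carried the accession of Hspa1b, so it has no value. All 9 measured genes passed the filter on dim probes, and all 17 probes were well above background on all 6 arrays, including in the group where a gene was lower.

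The series compared 3 samples from Arid3b-null mouse embryos with 3 samples from wild type embryos, all at embryonic day 9.5. Arid3b is a transcriptional regulator of the ARID family, which binds DNA. The material was RNA from the heads, dissected with the first branchial arch, of 4 pooled embryos per sample, so single embryos cannot be told apart, and neither the mutant allele nor the strain is given in the sources used here. Every RNA sample was hybridised to a one-colour Agilent array, which reads RNA levels as fluorescence at probes, and no member spot was saturated.

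Chaperones bind unfolded protein and help it fold. In the cytosol, Hsp70 proteins work with J-domain partners, which deliver the unfolded protein, and with Hsp110 proteins, which exchange the nucleotide, while Hsp90 acts on proteins that are already partly folded. In the mitochondrion the chaperonin of Hspd1 and its lid, made by Hspe1, fold imported proteins. When unfolded protein builds up, the transcription factor Hsf1 forms trimers and binds heat shock elements, which are inverted repeats of GAA. For this description Hspa1a, Hspa1b, Hsph1, Hsp90aa1 and Dnaja1 were classed as inducible and Hspa8, Hsp90ab1, Hspa4, Hspd1 and Hspe1 as constitutive. The division is one of degree, since several constitutive members are also raised by heat.

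Promoters of the members are shown because Hsf1 acts through heat shock elements. RefSeq windows of 250 bases before to 50 after a gene start (GRCm38.p6) were at hand for 7 members, in 11 windows. The motif searched was GAANNTTC or TTCNNGAA, each of which reads the same on both strands, and its matches are in capitals below. At least 1 match was found in 7 of the 11 windows, against 15.1% of all 32851 windows. By gene, 6 of the 7 held a match in at least 1 window (Hspa1a, Hspa1b, Hsph1, Dnaja1, Hspd1 and Hspe1). The longer form, of 3 units, in which TTCNNGAA and GAANNTTC overlap by the GAA or the TTC that they share, was found in 4 windows of Hsph1, Hspd1 and Hspe1, against 0.603% of all windows. The members were chosen partly as genes that depend on Hsf1, so shares above those of all windows may follow from that choice. A long match holds overlapping short ones, and a match describes the letters and not binding. Windows are not separate sites: both Hsph1 windows hold the same long match. The windows of Hspd1 and Hspe1 with long matches share the same stretch of bases. The Hspa4 window held no match of either kind. By class, the long form was in the inducible Hsph1 and in the constitutive Hspd1 and Hspe1. The inducible Hspa1a, Hspa1b and Dnaja1 held only the short form. Hspd1 and Hspe1 lie head to head. Of the 2 Hspd1 starts, 1 lies inside Hspe1, so the genes overlap from there, and the other lies upstream of Hspe1. The 215 bases between that upstream start and the start of Hspe1 hold 2 overlapping long matches (chr1:55087933-55088147, given on the + strand towards Hspe1), at positions -89 to -77 and -84 to -72 from the Hspe1 start. Hspa1a and Hspa1b are neighbours with starts 12918 bases apart, and 247 of the 250 bases before their starts are identical. Their 120 bases before the start are shown (chr17:34972157-34972276 and chr17:34959239-34959358, - strand), with 1 short match each at -104 to -97. For Hsph1 the 100 bases before its first start (chr5:149636337-149636436, - strand) are followed by bases 30 to 50 after it, with the long match at 37 to 49 (chr5:149636287-149636307, - strand). Dnaja1 has 1 short match, at -124 to -117 from the first of its starts, within the 50 bases shown (chr4:40722318-40722367, + strand).
Hspd1 and Hspe1, between the starts: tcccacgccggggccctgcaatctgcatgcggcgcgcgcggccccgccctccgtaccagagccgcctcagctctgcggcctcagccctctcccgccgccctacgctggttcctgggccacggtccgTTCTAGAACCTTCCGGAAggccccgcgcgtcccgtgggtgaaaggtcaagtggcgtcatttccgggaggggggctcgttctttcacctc
Hspa1a, before the start: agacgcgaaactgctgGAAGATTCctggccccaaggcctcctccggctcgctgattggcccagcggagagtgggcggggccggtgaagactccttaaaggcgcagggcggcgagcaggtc
Hspa1b, before the start: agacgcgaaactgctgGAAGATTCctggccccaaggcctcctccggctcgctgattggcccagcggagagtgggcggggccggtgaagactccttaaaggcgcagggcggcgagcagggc
Hsph1, before the start: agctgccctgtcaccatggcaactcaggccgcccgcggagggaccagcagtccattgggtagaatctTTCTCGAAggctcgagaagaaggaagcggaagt
Hsph1, after the start: ctgcagaTTCTGGAAAGTTCt
Dnaja1, before the start: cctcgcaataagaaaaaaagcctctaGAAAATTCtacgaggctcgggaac

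Some values concern all arrays. On each array 67.9% to 70.3% of the non-control spots exceeded background by the scanner software's own flag, and the 75th percentiles of signal lay between 626 and 977. All values below are log2 signal relative to the 75th percentile of the same array (the level), or the null minus wild type difference of such levels with its limma standard error, with n = 3 arrays per group. Probes differ in how brightly they bind, so the level of one gene is not set against that of another. Each slide was scanned once and held the null and the wild type array of 1 replicate number, null always in position 2 and wild type in position 1; these positions and the genotypes cannot be told apart. Arid3b itself was lower by 1.19 ± 0.29 on the null arrays (limma adjusted p of 0.0266), by the brightest of its 3 probes, and leaving out any 1 null array ended that call (0.0690 to 0.0861). The call was also lost in the table of values that the authors deposited (0.0580) and without the filter on dim probes (0.0599). The other Arid3b probes were lower by 2.33 ± 0.16 (adjusted p of 0.000759) and 1.37 ± 0.30 (0.0224). Whether the Arid3b probes lie within a deleted stretch is not stated. All 10 head markers examined were measured, and of 8 trunk markers only Hoxa9 passed the filter on dim probes. The head markers were not level between the groups: the branchial arch genes Barx1 and Dlx2 were lower in the null heads by 2.34 ± 0.25 (adjusted p of 0.00204) and 1.13 ± 0.17 (0.00542), and Tfap2a and Otx2 were higher, at 0.97 ± 0.13 (0.00347) and 0.57 ± 0.16 (0.0401). Their part in the chaperone differences was not tested.

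**Figure D1:**
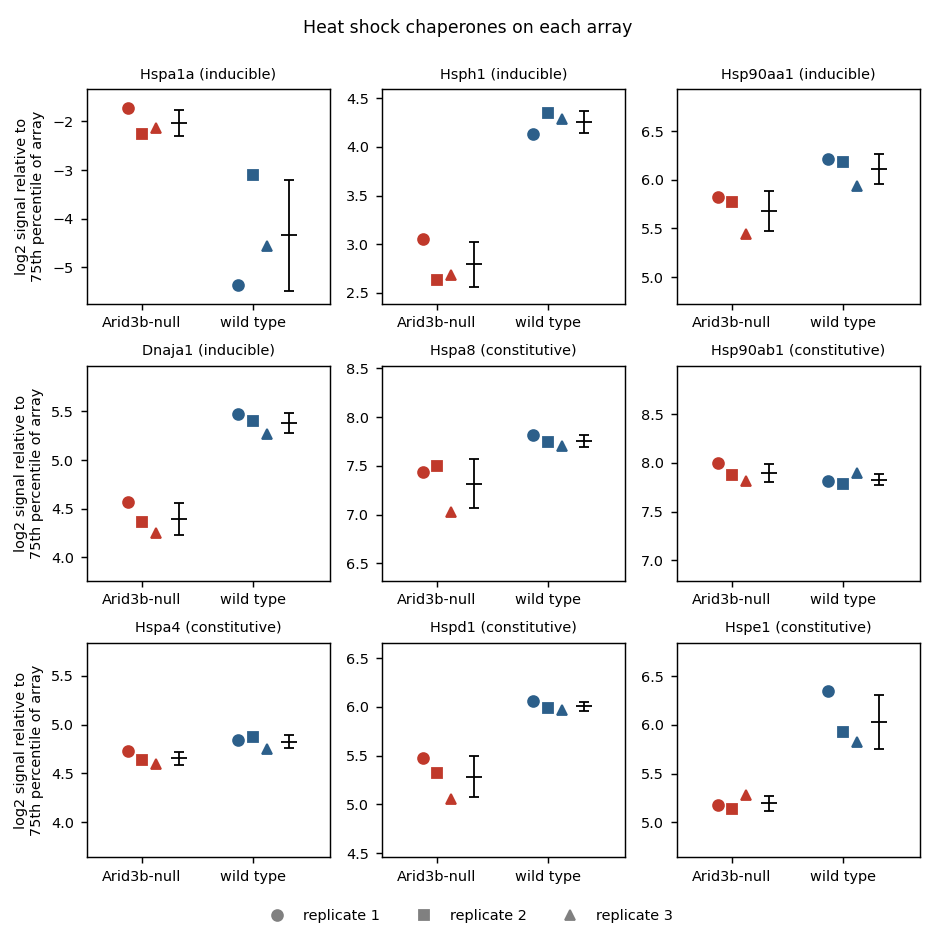
Level of the 9 measured chaperones on each array, as log2 signal relative to the 75th percentile of the array. Arid3b-null arrays are red and left, wild type arrays are blue and right, symbols give the replicate number, and black bars are mean ± SD (n = 3). The vertical axis spans a wider range for Hspa1a than for the others. The groups overlap only for Hsp90ab1.

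In the null heads 4 members fell and 1 rose. Hsph1, Dnaja1, Hspd1 and Hspe1 were lower and Hspa1a was higher, while Hsp90aa1, Hsp90ab1, Hspa8 and Hspa4 did not pass the test (limma, Benjamini-Hochberg adjusted p under 0.05 over all 14906 genes). A lower call was made for 4 of 9 members, against 11.2% of all genes tested, and a higher call for 1 of 9, against 12.3%; in either direction 23.5% of genes were called. The groups did not overlap for 8 of the 9, against 42.4% of all genes: 7 lay wholly lower, against 21.8% of all genes, and 1 wholly higher, against 20.6%. The median difference over the 9 was -0.44, against -0.04 over all genes. In whole heads, fewer cells of a type and less RNA per cell cannot be told apart.

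Hsph1 encodes an Hsp110 protein that exchanges the nucleotide of Hsp70 and is raised by heat. Its level was 3.05, 2.64 and 2.69 on the null arrays, against 4.13, 4.34 and 4.28 on the wild type arrays. Every null array lay more than 1 log2 unit below every wild type array. Hsph1 was 2.75-fold lower (log2 difference -1.46 ± 0.16, adjusted p of 0.00218), with -1.08, -1.71 and -1.59 within slides 1, 2 and 3. A second probe gave -1.39 ± 0.20. Hsph1 was called in each of the 16 alternatives run (adjusted p of 0.000667 to 0.0159), with differences of -1.59 to -1.28.

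Dnaja1 encodes a J-domain partner of cytosolic Hsp70. Its level was 4.57, 4.36 and 4.25 on the null arrays, against 5.47, 5.40 and 5.27 on the wild type arrays. The groups lay clearly apart. Dnaja1 was 1.98-fold lower (-0.98 ± 0.14, adjusted p of 0.00476), and the difference was nearly alike on the 3 slides, at -0.90, -1.04 and -1.01. Dnaja1 was called in each of the 16 alternatives (adjusted p of 0.00116 to 0.0252). A second probe of Dnaja1, with lower signal, gave -0.33 ± 0.19 and did not pass (adjusted p of 0.274), so the size rests on the first.

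The mitochondrial chaperonin genes both fell. Hspd1, the chaperonin itself, was at 5.47, 5.33 and 5.05 on the null arrays, against 6.06, 5.99 and 5.97 on the wild type arrays. Every null value lay below the wild type values, which were close together. Hspd1 was 1.65-fold lower (-0.72 ± 0.15, adjusted p of 0.0159). Hspe1, the co-chaperonin, was at 5.17, 5.13 and 5.28 on the null arrays, against 6.35, 5.93 and 5.82 on the wild type arrays. Here the wild type values were the spread ones, with replicate 1 the highest. Hspe1 was 1.79-fold lower (-0.84 ± 0.17, adjusted p of 0.0149), and its other probes gave -0.83 ± 0.19 (adjusted p of 0.0250) and -0.79 ± 0.32 (0.128). Within slides 1, 2 and 3 the differences were -0.59, -0.66 and -0.92 for Hspd1 and -1.17, -0.80 and -0.54 for Hspe1. Leaving out null replicate 2 (adjusted p of 0.0529) or wild type replicate 1 (0.0516) ended the call of Hspd1, and leaving out null replicate 1 (0.0642) or 2 (0.0567) that of Hspe1.

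Hspa1a, the strictly inducible cytosolic Hsp70, moved the other way. Its processed signal before scaling was 208.3, 131.5 and 223.3 on the null arrays, against 16.6, 82.8 and 27.9 on the wild type arrays. Its level was -1.73, -2.25 and -2.13 on the null arrays, against -5.35, -3.11 and -4.57 on the wild type arrays. The null arrays were close together and all above the wild type arrays, which ranged widely, with replicate 2 the highest. Hspa1a was 4.94-fold higher (2.30 ± 0.52, adjusted p of 0.0212), with 3.62, 0.86 and 2.44 within slides 1, 2 and 3. Leaving out null replicate 1, 2 or 3 ended the call of Hspa1a (0.0797, 0.0537 and 0.0723), as did testing all probes, dim ones included (0.0501). The normexp background correction gave Hspa1a a smaller difference of 1.14 (adjusted p of 0.0104). Without wild type replicate 2 the difference was 2.92 (adjusted p of 0.00336).

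Wild type replicate 2 also stood apart for Hspb1, a small heat shock protein raised by heat that is not a member. The level of Hspb1 was 0.33, -0.48 and -0.57 on the null arrays, against -0.03, 3.80 and -0.57 on the wild type arrays. Cryab, another small heat shock protein, was at -0.72, -0.67 and -0.74 on the null arrays, against -0.93, 0.46 and -0.84 on the wild type arrays, and was also highest on wild type replicate 2. The other measured small heat shock proteins did not share this. On wild type replicate 2 Hspb6 was lowest of all arrays (-1.89), and Hspb2 lay between the other wild type arrays (-3.26). Hspb8 was highest of the wild type arrays there (-1.28), but below null replicate 3 (-1.10). Without that array Hspa1a differed more, as given above. Whether the Hspa1a probe can tell Hspa1a from Hspa1b is not known from the files, since they give no probe sequence, so its signal may hold both.

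The other members of the Hsp70 and Hsp90 machines differed less. Hsp90aa1, the stress-inducible cytosolic Hsp90, was at 5.82, 5.77 and 5.44 on the null arrays, against 6.22, 6.19 and 5.94 on the wild type arrays. The groups did not overlap, with a gap smaller than the spread within either group. The difference was -0.44 ± 0.16 (95% interval -0.82 to -0.06), and the adjusted p was 0.0938. Hspa8, the constitutive cytosolic Hsp70, was at 7.43, 7.50 and 7.03 on the null arrays, against 7.82, 7.74 and 7.71 on the wild type arrays. The groups did not overlap, and null replicate 3 was the lowest array. The difference was -0.44 ± 0.16 (95% interval -0.82 to -0.06; adjusted p of 0.0944), and its other 2 probes gave -0.59 ± 0.14 (adjusted p of 0.0266) and -0.44 ± 0.17 (0.114). With other settings Hspa8 passed after quantile normalization (-0.54, adjusted p of 0.0289), with normexp (-0.49, 0.0201), with the mean of its probes (-0.49, 0.0328) and with array weights (-0.39, 0.0464). It was smaller, at -0.29 (0.220) without null replicate 3, and at -0.26 (0.325) in the deposited table, where 1 of its other probes stood for it. Hsp90aa1 passed with normexp (-0.41, 0.0408), with array weights (-0.44, 0.0271) and without wild type replicate 3 (-0.52, 0.0454).

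Hsp90ab1, the constitutive cytosolic Hsp90, was at 8.0, 7.88 and 7.81 on the null arrays, against 7.81, 7.79 and 7.89 on the wild type arrays. The groups overlapped. The difference was 0.07 ± 0.13, with a 95% interval of -0.23 to 0.36 (adjusted p of 0.747). The highest processed signal of Hsp90ab1 was 219829.8, below the scanner software's lowest saturation value of 779482. Hspa4, an Hsp110 protein made without stress, was at 4.73, 4.64 and 4.60 on the null arrays, against 4.84, 4.88 and 4.75 on the wild type arrays. The groups lay close together but did not overlap. Its difference was -0.17 ± 0.12, with a 95% interval of -0.46 to 0.12 (adjusted p of 0.366), and it turned to 0.03 after quantile normalization and 0.01 with normexp. Its probes disagreed: a second one gave -0.71 ± 0.17 (adjusted p of 0.0311) and another -0.06 ± 0.61, with wild type values of 0.38, 1.07 and 2.80.

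**Figure D2:**
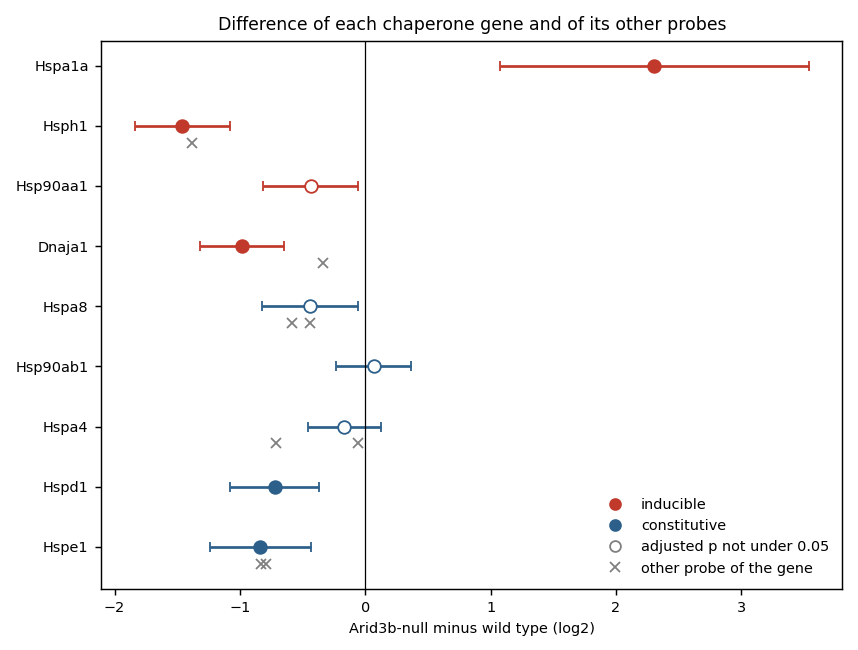
Null minus wild type log2 difference of the 9 measured chaperones, with 95% intervals from limma. Red marks inducible and blue constitutive members, open circles did not pass at an adjusted p of 0.05, and grey crosses are the other probes of a gene. Hspa1a lies at 2.30, Hsph1 at -1.46, and Hsp90ab1 at 0.07 with an interval across 0.

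By class, the 4 measured inducible members ran from -1.46 to 2.30 with a median of -0.71, and 2 fell and 1 rose. The 5 constitutive members ran from -0.84 to 0.07 with a median of -0.44, and 2 fell. Over all genes tested the median was -0.04, and 11.2% fell and 12.3% rose. Within slides 1, 2 and 3 the median was -0.65, -0.73 and -0.76 for the inducible class and -0.39, -0.25 and -0.54 for the constitutive class. Both classes held members that fell and members that did not pass, and the inducible class also held the 1 that rose, so the direction was not shared within it. The classes were assigned with results of these data known, and no test of their difference was made.

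Comparing 2 members on the same array removes the scaling of that array. This was done for 5 pairs of an inducible member and its partner or of complex partners, with an exact two-sided permutation test over arrays, and only the change between groups has a meaning. With 3 arrays against 3 the exact p cannot go below 0.1. Hsp90aa1 minus Hsp90ab1 was -2.18, -2.11 and -2.37 on the null arrays, against -1.60, -1.60 and -1.96 on the wild type arrays, a change of -0.50. Hsph1 minus Hspa4 was -1.68, -2.01 and -1.91 on the null arrays, against -0.72, -0.53 and -0.47 on the wild type arrays, a change of -1.29. In both pairs every null array had less of the inducible gene, relative to its constitutive relative, than any wild type array. Dnaja1 minus Hspa8 was -2.86, -3.13 and -2.77 on the null arrays, against -2.35, -2.34 and -2.44 on the wild type arrays, a change of -0.55. Hspa1a minus Hspa8 was -9.17, -9.75 and -9.16 on the null arrays, against -13.18, -10.85 and -12.27 on the wild type arrays, a change of 2.74. Neither of these pairs overlapped between the groups. These 4 pairs had the smallest exact p that 3 against 3 allow, 0.1 (0.125 adjusted over the 5 pairs). For Hspa1a minus Hspa8 this p was fixed beforehand. On every null array Hspa1a was higher, and Hspa8 lower, than on any wild type array. The pairs were chosen with earlier results of these data known, and how often other pairs of genes lie apart was not counted. Hspd1 minus Hspe1 was 0.30, 0.20 and -0.23 on the null arrays, against -0.29, 0.06 and 0.15 on the wild type arrays. The groups overlapped for these partners of 1 complex, with a change of 0.12 (exact permutation p of 0.5). Every pair used the brightest probe of each gene. The other Dnaja1 probe differed by -0.33 between the groups, less than the -0.44 of the Hspa8 probe used. The other Hspa4 probes differed by -0.71 and -0.06. No pair was computed with these other probes.

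**Figure D3:**
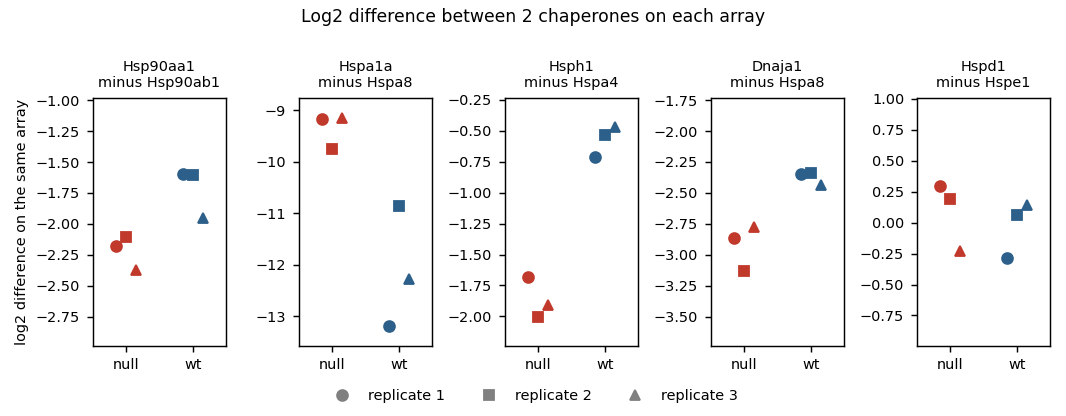
Log2 difference between 2 chaperones on the same array, for 5 pairs, with null arrays red and left and wild type (wt) arrays blue and right; symbols give the replicate number. The vertical axis spans a wider range for Hspa1a minus Hspa8 than for the others. The groups lie apart in 4 pairs and overlap for Hspd1 minus Hspe1.

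The genes whose levels ran most like Hsph1 over the 6 arrays, outside the members and clone names, were Bdh1, Amigo3, Tmem104, Cenpj and Ptprz1, with Pearson r of 0.995 to 0.996. These correlations hold the gap between the groups as well as the spread within them, and they are given as a description. All 5 were lower in the null heads, by 0.96, 2.01, 1.13, 0.81 and 1.12 on the log2 scale.

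Of the other genes of the heat shock system, 77 of 83 listed were measured, of which 4 rose (5.19%) and 7 fell (9.09%), shares below the 12.3% and 11.2% of all genes, with a median of -0.15 against -0.04 over all genes. For the counts at an unadjusted p under 0.05 given below, the shares over all genes were 18.6% higher and 19.0% lower. Among the heat shock factors Hsf1 was at 1.63, 1.23 and 1.73 on the null arrays, against 1.26, 1.33 and 1.99 on the wild type arrays. These groups overlapped widely (difference 0.01 ± 0.24). Hsf2 differed by -0.09 ± 0.16, and Hsf4, a factor known from the lens, by 0.61 ± 0.13 (adjusted p of 0.0153). Hsf4 exceeded background on 2 of the 3 wild type arrays and passed the filter through the null group, where it is higher; it is 1 of the 4 rises above, which were 3 where background had to be exceeded on all arrays. Its call was lost with normexp (0.13, adjusted p of 0.340), with an intensity trend and robust variance (0.122), and without null replicate 1 (0.0752) or 2 (0.0562).

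Of 17 other heat-induced genes measured, 3 fell (17.6%, against 11.2% of all genes) and 0 rose in limma (at an unadjusted p under 0.05, 6 lower and 1 higher), with a median of -0.36. Chordc1, which binds Hsp90, was at 1.34, 1.16 and 1.17 on the null arrays, against 2.31, 2.24 and 1.90 on the wild type arrays. The groups did not overlap, and Chordc1 was lower by 0.93 ± 0.16 (adjusted p of 0.00775), a call made in each of 16 alternatives. Ahsa1, which activates the ATPase of Hsp90, fell by 0.74 ± 0.14 (0.0106; lost without null replicate 1, at 0.0539, and in the deposited table, at 0.0587), and Zfand2a by 0.70 ± 0.16 (0.0243; lost under 6 of 16 alternatives). Dnajb1, a J-domain gene raised by heat, did not pass, at 2.86, 3.05 and 2.61 on the null arrays against 4.0, 4.18 and 3.06 on the wild type arrays (-0.91 ± 0.30, adjusted p of 0.0705). In 5 of 16 alternatives Dnajb1 did pass as lower in limma. These were the slide block (adjusted p of 0.0262), normexp (0.0472), an intensity trend and robust variance (0.0481), array weights (0.00258) and leaving out wild type replicate 3 (0.00422). Bag3, a co-chaperone of Hsp70, was at 0.49 ± 0.19 (0.112), higher on every null array than on any wild type array.

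Of 27 measured co-chaperones of Hsp70 and Hsp90, 3 fell (11.1%, against 11.2% of all genes) and 0 rose in limma (8 lower and 3 higher at an unadjusted p under 0.05). Those that fell were Chordc1, Ahsa1 and Unc45a, a myosin chaperone (-0.59 ± 0.13, adjusted p of 0.0178). The median of the 27 was -0.26. Of 17 measured J-domain genes Dnajb12 rose (0.65 ± 0.14) and Dnajc9 (-0.71 ± 0.18) and Dnajc15 (-0.89 ± 0.26) fell. Their shares were 5.88% higher and 11.8% lower, against 12.3% and 11.2% of all genes. Unc45a was lost under 4 of 15 alternatives, and Dnajb12, Dnajc9 and Dnajc15 under 5, 7 and 8 of 16, with the removal of 1 array among them in each case.

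The small heat shock proteins, which hold unfolded protein without ATP, gave 2 rises (40.0%, against 12.3% of all genes) and 0 falls in limma among 5 measured. At an unadjusted p under 0.05 they also gave 2 and 0. Hspb2 was at -2.05, -1.90 and -1.99 on the null arrays, against -3.14, -3.26 and -3.27 on the wild type arrays. The replicates were tight and the groups far apart, and Hspb2 was 2.37-fold higher (1.24 ± 0.12, adjusted p of 0.00162). Hspb6 was at -0.56, -0.68 and -0.83 on the null arrays, against -1.46, -1.89 and -1.55 on the wild type arrays. It rose by 0.94 ± 0.16 (adjusted p of 0.00836), with no overlap. Both were called in all 16 alternatives, and the difference of Hspb2 was 0.74 with normexp. Cryab differed by -0.27 ± 0.36.

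Of 16 other genes of mitochondrial folding and proteolysis, 1 fell (6.25%, against 11.2% of all genes) and 0 rose in limma (1 lower and 2 higher at an unadjusted p under 0.05), with a median of 0.01. That gene was Grpel1, the nucleotide exchange factor of mitochondrial Hsp70 (-0.48 ± 0.12, adjusted p of 0.0331), which was lost under 10 of 16 alternatives, the slide block among them. Hspa9, the mitochondrial Hsp70, differed by 0.12 ± 0.22. Of 8 other Hsp70 genes measured, 0 passed in limma, with 2 lower and 1 higher at an unadjusted p under 0.05.

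Chaperones of other compartments were read from the same fit. Of 22 genes of the endoplasmic reticulum, 5 fell (22.7%, against 11.2% of all genes) and 2 rose (9.09%, against 12.3%), with a median of -0.34. Hspa5, its Hsp70, was at 4.98, 4.86 and 4.47 on the null arrays, against 5.69, 5.53 and 5.21 on the wild type arrays, so the groups did not overlap. It was 1.63-fold lower (-0.71 ± 0.20, adjusted p of 0.0406; lost under 7 of 15 alternatives), Creld2, Dnajb11 and Sdf2l1 fell by 1.08, 1.02 and 1.0, and the oxidase Ero1a rose by 2.4 ± 0.18 (1.57 with normexp). Of 9 genes listed for the cytosolic chaperonin, 1 rose (11.1%, against 12.3% of all genes) and 0 fell in limma, with 1 lower at an unadjusted p under 0.05. The gene that rose was Cct6b (2.09 ± 0.22, and 0.94 with normexp). Its signal was dim, with a mean level of -2.80 on the null arrays and -4.89 on the wild type arrays. Tcp1 was at 0.24 ± 0.15, and the median of the 9 was 0.16. The difference between these lists and the members was not tested.

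**Figure D4:**
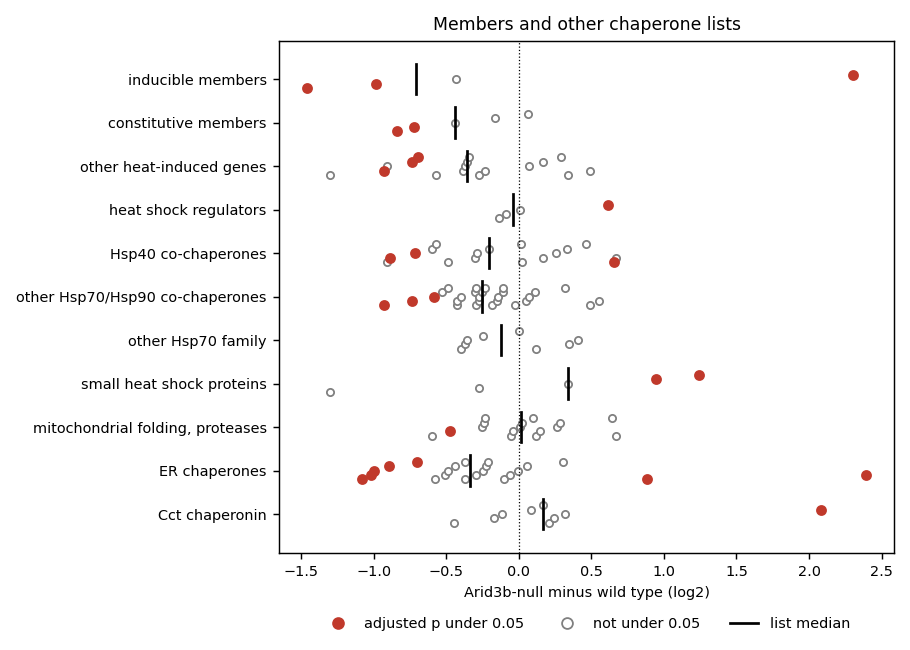
Null minus wild type log2 difference of every measured gene in the member classes and the other chaperone lists. Red points passed at an adjusted p of 0.05, open points did not, and the black bar is the list median. The medians run from -0.71 for inducible members to 0.34 for small heat shock proteins; a gene can stand on 2 lists.

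Markers of handling and of blood were read beside these results. Of 13 immediate early genes, which respond to handling and stress, 3 rose (23.1%, against 12.3% of all genes) and 0 fell in limma (5 higher and 1 lower at an unadjusted p under 0.05). Their mean level was -1.99 to -1.81 on the null arrays, against -2.42 to -2.03 on the wild type arrays. Zfp36, 1 of the 5, exceeded background on 1 of the 3 wild type arrays, and Fos on 2 of the 3. Both passed the filter on dim probes through the null group, where their means are higher, and both enter the mean levels. Of 10 erythroid genes 1 fell in limma, against 11.2% of all genes, and 0 rose, against 12.3%. The fall of 1 in 10 was thus no more than the share over all genes. At an unadjusted p under 0.05 the counts were also 1 and 0. The mean level of the erythroid genes was 1.94 to 2.87 on the null arrays, against 2.31 to 2.94 on the wild type arrays. Their part in the chaperone differences was not tested.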

How the data were processed

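Per the file headers, the spots were read with version 10.7.3.1 of Agilent's Feature Extraction software; total RNA was amplified and labelled with Cy3, per the labels' protocols. The deposited scanner files hold 1 processed intensity per spot after background subtraction, raw median intensities and flags. The authors also deposited a table of log2 values, whose column medians were 6.76 to 6.77 and which correlated with the scanner log2 signal of the same array at 0.999 or more; its scaling and filtering are not given in the sources used here. The files give RefSeq accessions, not gene names; 26424 of 39429 non-control probes matched 1 symbol in a RefSeq table of GRCm38.p6, and 13005 matched none.

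The level is log2 of the processed intensity minus the array's 75th percentile. Spots flagged as outliers were dropped and repeat spots of 1 probe were averaged. A probe was tested if it exceeded background on all 3 arrays of either group and had a value on 5 or more arrays; the brightest such probe stood for its gene. Groups were compared with limma 3.58.1 in R 4.3.3, with Benjamini-Hochberg adjustment over all genes. The steps were also run on simulated data with independent noise for each gene. That run cannot speak to shifts that the genes of an array share. The labels do not say whether the pools were of different litters, so a p-value reflects only how these 6 pools vary. Alternatives are given below; normexp used median signals because the files hold no mean spot signal. Members, classes, lists and pairs were chosen with earlier results of these data known; the Hspa1b pair had no value. Named are Arid3b, all members, up to 4 called genes per list by p, 8 fixed genes, and the 5 genes most like Hsph1. Hoxa9, Cryab, Hspb8, Barx1, Dlx2, Tfap2a, Otx2, Zfp36 and Fos were named after their values were seen. Deviations of same-numbered arrays from their group means correlated at -0.20, 0.15 and 0.42, so the numbers were not taken as pairs.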

Additional observations from a re-analysis of the deposited data

How the results depend on the processing

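The replicate block (also the slide and scan block, since they coincide) called 3689 genes and changed no call of a member. Of the other named genes it lost Grpel1 and added Dnajb1 (limma adjusted p of 0.0262). Members falling numbered 4, and 2 without null replicate 2 and 2 at an adjusted p under 0.01. The range over left-out arrays was 2 to 5. Falls among members were 6 with normexp, with array weights and at 0.10, and 5 with quantile normalization and with the mean of probes. They were 3 in the deposited table. Members rising numbered 1, and 0 without the filter on dim probes, at 0.01 and without any 1 null array. All genes called numbered 3506, against 2270 without that filter, 6685 with array weights, 1272 at 0.01 and 1516 to 5199 without 1 array. The other heat shock genes gave 4 rises and 7 falls. Rises were 7 after quantile normalization, 8 with normexp, 9 with array weights, 2 at 0.01, 7 at 0.10 and 2 to 7 without 1 array. Falls were 4 in the deposited table, 4 without the filter, 13 with an intensity trend and robust variance, 21 with array weights, 1 at 0.01, 15 at 0.10 and 1 to 18 without 1 array.

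The inducible median was -0.60 with quantile normalization and -0.60 with normexp, -0.80 in the deposited table, -0.55 with the mean of probes, and -0.79 to -0.62 without 1 array. The constitutive median was -0.54 with quantile normalization, -0.49 with normexp, -0.49 with the mean of probes, and -0.53 to -0.29 without 1 array. With quantile normalization, normexp and the mean of probes the class medians thus lay closer together than the -0.71 and -0.44 of the main fit. The constitutive median was -0.60 in the deposited table. The rows of that table used here hold no value for Hsp90aa1, Hsp90ab1 or Hspd1, so its medians are over 3 inducible and 3 constitutive members, and other probes stood for Hspa8 and Hspa4. Hspa4 turned to 0.0275 with quantile normalization and 0.0099 with normexp. Hspa1a minus Hspa8 was 1.64 with normexp, Hsph1 minus Hspa4 was -0.71 in the deposited table, and Dnaja1 minus Hspa8 was -0.27 with quantile normalization and -0.30 with normexp. Hspd1 minus Hspe1 was -0.014 without wild type replicate 1, and -0.014 to 0.27 over left-out arrays. The causes were not tested. The dim signal of Hspa1a limits the size of its change, and 3 arrays per group limit all precision.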
